A study of Mus musculus with 4 samples.

Results

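The numbered Zfp genes, which mostly encode zinc finger proteins, were examined in RNA recovered with CPEB2 IgG and with control IgG from mouse cortical and hippocampal tissue. A gene was included when its symbol was Zfp followed only by a number and at least 1 of its probes was well above background on all 4 arrays, and its brightest such probe stood for it. Zfp36 was left out. Of 329 such symbols on the array, 311 met the rule and 18 did not. The genes were thus chosen by detection and selected on brightness, and not by the ratio between the antibodies, but a gene measured with only 1 of the antibodies could not enter. RNA immunoprecipitation (RIP) recovers the RNA held by a protein with an antibody to that protein, and a non-specific IgG measures the background. Corticohippocampal lysate of 8-week-old male C57BL/6 mice was incubated for 3 h with beads carrying either IgG, and the labels name no engineered allele. Each of 2 independent experiments split its lysate between both antibodies, which gave 2 pairs of one-color arrays, 4 in all. A description field of these samples speaks of CPEB3 IgG where the titles and the protocol have CPEB2, and CPEB2 IgG is used here.

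Most of these are C2H2 zinc finger proteins, in which repeated fingers, each folded around a zinc ion, read DNA, and short conserved linkers join neighbouring fingers. Many also carry a KRAB domain that recruits Trim28 (KAP1) and, through it, histone methylation and heterochromatin proteins to silence retroelements and imprinted regions. The genes have multiplied by local duplication and lie in chromosomal clusters of close relatives. Other members are not KRAB proteins and act in neuronal development, general transcription, RNA handling or ribosome quality control. CPEB2 is an RNA-binding protein that controls translation of mRNAs holding a cytoplasmic polyadenylation element (CPE), whose DNA letters are TTTTAT or TTTTAAT, in the 3' untranslated region.

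The stretches that the array read for some of these genes are shown because their base composition and letters recur in the results. Each is 30 bases of a 60-base probe on the strand of the mRNA, placed on mm9 by the array annotation, and capitals mark CPE letters. The first 6 belong to genes that were higher with CPEB2 IgG and the next 5 to genes that were lower.
Zfp712, chr13:67139715-67139744, minus strand: agttttctgtctcttttgccTTTTATttat
Zfp148, chr16:33500399-33500428, plus strand: cacttctttgatTTTTATtaatttgggctt
Zfp941, chr7:147995683-147995712, minus strand: ctgtggcaacagTTTTATtcagatatcaaa
Zfp266, chr9:20299638-20299667, minus strand: aaaattggaattttagcaacttttttcttc
Zfp362, chr4:128450347-128450376, minus strand: ccaccatatttagaaatagttaccttatta
Zfp809, chr9:22047532-22047561, plus strand: ctggcaatttgagtgagaatggtcctcata
Zfp428, chr7:25295727-25295756, plus strand: ggaggctacgccagcttggaggaagatgat
Zfp579, chr7:4944471-4944500, minus strand: tctgctcccgttcctctgtctctgtgaata
Zfp668, chr7:135009560-135009589, minus strand: ctcttgtccactattagctgtgggcagtgg
Zfp790, chr7:30614342-30614371, plus strand: tgtaaggactgtgaaaaggccttccgttgc
Zfp454, chr11:50686277-50686306, minus strand: atagtagtgcctTTTTATtggcctgaatta
Whole probes of Zfp428, Zfp579 and Zfp668 held 55%, 53.3% and 53.3% G and C, against 28.3% for Zfp266 and 35% for Zfp362. Where RefSeq (GRCm38.p6) gave a strand, 254 of 256 members had their probe on the strand of the gene. The exceptions, Zfp131 and Zfp28, are uncertain.

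On each array 68.4% to 74.1% of spots were well above background and none was saturated. Raw signals below are spot intensities after the scanner software's background correction, and their median over the 311 genes lay between 357 and 441 on the 4 arrays. Fold changes compare signals after each array was scaled to its 75th percentile, CPEB2 IgG over control IgG within an experiment, and are given as log2 means ± SD over 2 experiments with p-values from limma, adjusted over all 17804 genes that met the same rule of detection. Cpeb2 itself was higher with CPEB2 IgG, by 2.89 ± 0.29, whereas the reference Gapdh fell by 2.52. Gripap1 (GRASP1), whose mRNA the paper cites as translationally activated by CPEB2, also fell, by 1.61 (limma, adjusted p = 0.00314). A cited CPEB2 target was thus among the lower genes. The markers of neurons, astrocytes, oligodendrocytes and microglia were detected on every array. Of 6 markers of other tissues, Apoa2, Myh2, Ins2 and Umod were detected on every array too, Apoa2 between 2922 and 4369 and the others at 482 or less, while Ckm was detected on 2 arrays and Alb on none. All 4 arrays shared 1 slide, on which each antibody took its own positions, and position cannot be told apart from antibody. Precision is limited by the number of arrays, and an exact permutation test of 2 arrays against 2 cannot go below p = 0.333 (two-sided).

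The Zfp genes did not move together. At an adjusted p-value under 0.05 in limma, 85 of 311 (27.3%) were higher with CPEB2 IgG and 66 (21.2%) were lower, while 25.8% of all genes tested were higher and 24.9% were lower. The other 160 Zfp genes did not pass the test in either direction. A higher Zfp gene had a median fold change of 2.40 (range 1.61 to 8.02), and a lower one was a median 2.25 times lower. The median log2 fold change over the 311 genes was 0.03, against -0.07 over all genes, with middle values from -0.56 to 0.76 and a full range from -2.66 to 3.00. The spread of the Zfp genes was 1.00 (SD on the log2 scale) and that of all genes 1.21. The sign of the Zfp median depended on the scaling, since it was -0.02 with no scaling and -0.08 with the percentile taken over detected probes, and the median over all genes moved with it, to -0.13 and -0.18. After median centring, which raised the median of all genes to 0.15, 95 Zfp genes were higher and 41 lower (69.9% of calls higher, against 56.3% after 75th percentile scaling). Over all genes the same step moved the share from 50.9% to 62.3%.

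The scaled levels of both CPEB2 IgG arrays lay above both control IgG arrays in 118 of the Zfp genes (37.9%), where the share over all genes was 35.8%. They lay below both in 113 (36.3%), where the share was 38.2%. The study set limits of 1.5-fold enrichment and a raw signal of 1000, without a test, beside a CPE in the mRNA, which was not examined here. Read as a mean fold change past the first and a signal past the second on either CPEB2 IgG array, a choice made here, these limits were met by 42 of the 92 Zfp genes bright enough (45.7%), and by 46% of all such genes. Nearest to the limma threshold were Zfp202 just inside, at -0.81 and adjusted p = 0.0497, and Zfp593 just outside, at -0.67 and adjusted p = 0.0507.

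The largest increases were found in Zfp712, Zfp266 and Zfp830. Zfp712 (NM_001166218; probe at chr13:67139715-67139774) gave signals of 1890 and 1739 with CPEB2 IgG, against 211 and 260 with control IgG. This is a log2 fold change of 3.00 ± 0.34 (n = 2 experiments) and an 8.02-fold difference (limma, adjusted p = 0.000388), and its antibody groups lay far apart. Zfp266 had 1391 and 2565 with CPEB2 IgG against 301 and 298, a log2 fold change of 2.71 ± 0.59. A dimmer second probe of Zfp266 gave only 0.03, so its increase rests on 1 of 2 probes. Zfp830, a nuclear protein needed for genome integrity in the early embryo, had 1620 and 2640 against 349 and 396, a log2 fold change of 2.53 ± 0.33.

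The next 7 were between 2.13 and 2.41. All 10 were chosen as the largest called increases, so the lack of overlap between their antibody groups adds no support. Over all genes, 35.8% had both scaled CPEB2 IgG levels above both controls. All 10 of the largest increases kept their calls in every tested alternative that measured them. Zfp800 had 1520 and 2051 with CPEB2 IgG against 372 and 318. Zfp362 had 4087 and 4049 against 909 and 835, with the experiments only 0.05 apart (2.25 and 2.30). Zfp704 had 1527 and 1760 against 387 and 325, and its second probe gave only 0.31 against 2.26 at the brightest. These genes were bright enough to pass the raw signal threshold of the study. Zfp217, a transcriptional corepressor known as a cancer gene, was dimmer, with 523 and 661 against 152 and 113, and its second probe gave 0.22 against 2.22. Zfp422 had 1893 and 1999 against 452 and 471. Zfp568 and Zfp809, KRAB proteins that silence a placental Igf2 transcript and retroviruses respectively, are described with their group below.

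**Figure D1:**
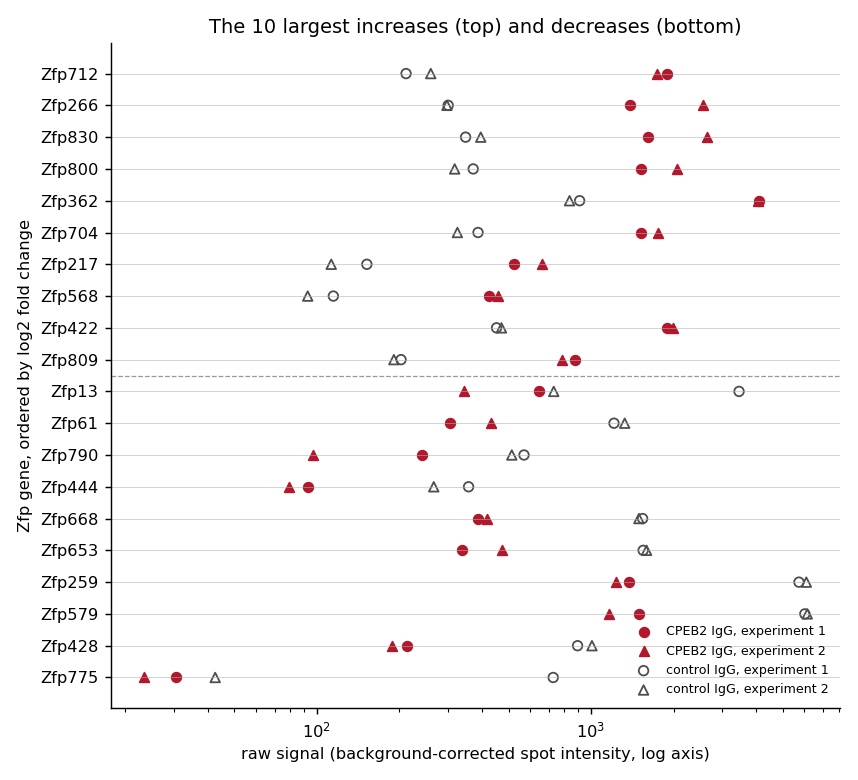
Raw signal on each of the 4 arrays (log axis) of the 10 Zfp genes with the largest increase and the 10 with the largest decrease among genes past the limma threshold with the same sign in both experiments. Filled symbols are CPEB2 IgG, open symbols control IgG, circles experiment 1 and triangles experiment 2; for Zfp775 and Zfp13 the control IgG signal of experiment 1 (728 and 3467) stands far from that of experiment 2 (42.5 and 731).

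The largest decrease was that of Zfp775, but it came mainly from 1 control array. Zfp775 had 30.6 and 23.4 with CPEB2 IgG against 728 and 42.5, so its experiments gave -4.49 and -0.84 (mean -2.66, limma adjusted p = 0.0211). It was not called without the block for the experiment, nor in the fits that left out either CPEB2 IgG array or the control IgG array of experiment 1, without which it gave -0.65. After centring within GC bins its adjusted p in limma was 0.0656. Zfp13 likewise had 3467 with control IgG in experiment 1 against 731 in experiment 2, with 644 and 343 for CPEB2 IgG, and it was not called in those fits either, with -0.61 when that control array was left out and adjusted p = 0.0541 in limma after centring within GC bins. The other 8 decreases kept their calls in each fit that left out 1 array.

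Zfp428 had 212 and 188 with CPEB2 IgG against 893 and 1008, a log2 fold change of -2.19 ± 0.29. Zfp579 had 1499 and 1164 against 6027 and 6152 (-2.15 ± 0.32). Zfp259, named Zpr1 in RefSeq and known to bind a translation elongation factor and to move between cytoplasm and nucleolus, had 1379 and 1229 against 5737 and 6103 (-2.13 ± 0.22). In these genes the antibody groups were far apart in both experiments. These and the other decreases named here were chosen as the largest called ones, so this separation adds no support. Over all genes, 38.2% had both scaled CPEB2 IgG levels below both controls. Zfp653, a nuclear receptor corepressor, had 338 and 473 against 1549 and 1594 (-1.92 ± 0.27). Zfp668 had 386 and 418 against 1542 and 1495 (-1.87 ± 0.07). Zfp444 had 92.9 and 78.8 against 357 and 267 (-1.80 ± 0.09). For Zfp668 and Zfp444 the ratio differed little between the experiments. Zfp61 had 307 and 432 against 1213 and 1327 (-1.75 ± 0.22). Zfp790 had 242 and 97.1 against 569 and 514 (-1.77 ± 0.87), and its second probe moved the other way, by 1.28.

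**Figure D2:**
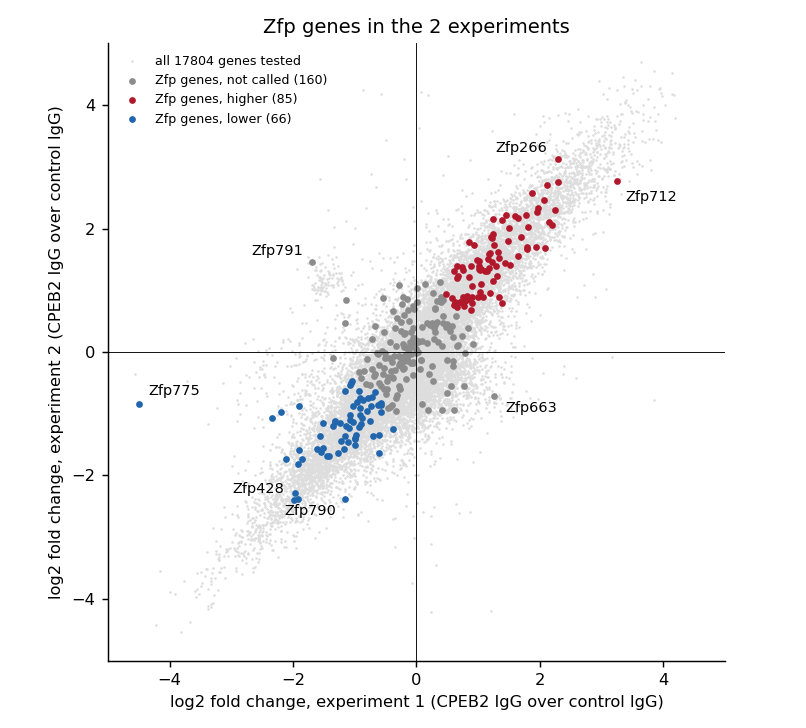
Log2 fold change of CPEB2 IgG over control IgG in experiment 1 (x axis) and experiment 2 (y axis) for the 311 Zfp genes, colored by their limma call, over all 17804 genes tested in light grey. Most Zfp genes lie along the diagonal, 253 of 311 have the same sign in both experiments, and Zfp791, Zfp663 and Zfp775 stand apart from it.

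The experiments gave similar ratios for most Zfp genes. Their log2 fold changes had a Pearson correlation of 0.85 between experiments across the 311 genes, and of 0.87 across all genes. Genes are not independent replicates, and the arrays of an experiment share a lysate. In 58 Zfp genes the sign differed between experiments. Experiments lay more than 1.5 apart on the log2 scale in 6 of 311 (1.93%), and in 3.01% of all genes. Beside Zfp775, the 4 widest were Zfp791, Zfp600, Zfp663 and Zfp820. Zfp791 had 8310 and 14608 with CPEB2 IgG against 28313 and 5432, so that experiment 1 gave -1.69 and experiment 2 gave 1.45. Zfp663 had 23872 and 21942 against 10526 and 36430, which gave 1.26 and -0.71. Both were bright, and the swing lay mainly in the control IgG arrays. Zfp600 and Zfp820 were dim on every array, at 65.1 or less.

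The 4 brightest Zfp genes did not share a direction. Zfp408, linked to retinal blood vessel development, had 164713 and 174892 with CPEB2 IgG against 170559 and 157967, a log2 fold change of 0.10 ± 0.10 that did not pass the test. Zfp658 did not pass either, at 0.42 ± 0.57. Zfp365, a neuronal protein that binds Disc1, was higher, with 61024 and 90288 against 27822 and 25120 (1.54 ± 0.46, limma adjusted p = 0.00293). Zfp628, whose probe held 86.7% G and C, was lower, with 193811 and 117798 against 313687 and 305534 (-0.98 ± 0.52, limma adjusted p = 0.0209). It was no longer called after median centring, after centring within GC bins, or without either control array or the CPEB2 IgG array of experiment 2 (-0.62).

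Among 14 general transcription regulators, 8 were higher and 1 was lower, with a median of 0.79. Of all genes tested 25.8% were higher and 24.9% lower, and the list was chosen with earlier results known. Zfp148 (ZBP-89), which binds GC-rich promoters, had 15671 and 19601 with CPEB2 IgG against 5861 and 4939 (1.76 ± 0.36, limma adjusted p = 0.00144). It was not called when its probes were averaged, at 0.66. Zfp64 had 2117 and 2448 against 889 and 870 (1.43 ± 0.13). Zfp532 and Zfp592, partners in a chromatin complex with Zfp687, rose by 1.47 ± 0.22 and 0.80 ± 0.03, while Zfp687 was at -0.28 and not called. Zfp609 and its relative Zfp608 rose by 0.78 ± 0.14 and 0.85 ± 0.07. The second probes of Zfp592 and Zfp609 gave 2.07 and 2.59, while those of Zfp148 and Zfp217 gave -0.44 and 0.22. Zfp592, Zfp608 and Zfp609 lost their calls in fits that left out a single array, with values down to 0.79, 0.62 and 0.55, and Zfp609 also when the percentile was taken over detected probes. Zfp131 was also higher, at 1.18 ± 0.21, on its uncertain probe. The lower gene was Zfp143, an activator that binds near transcription starts, with 83.1 and 94.6 against 171 and 168 (-0.88 ± 0.11, limma adjusted p = 0.0175), a call lost after median centring and without either control array. Zfp281, a regulator of pluripotency, was at -0.52, Zfp384 at -0.38, Zfp410, known for driving Chd4, at -0.06 and Zfp219 at 0.23, and none of them was called. Zfp516 of the same list was not detected on all arrays.

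Of 5 genes for imprinting and retroelement silencing, 3 were higher and none was lower, with a median of 0.87, beside the same shares of all genes. Zfp568 had 425 and 458 with CPEB2 IgG against 115 and 92.5 (2.15 ± 0.25, limma adjusted p = 0.000644). Zfp809 had 877 and 783 against 203 and 191 (2.13 ± 0.10, limma adjusted p = 0.000602), and its second probe gave 0.60. Zfp932, which acts on endogenous retroviruses, had 1111 and 1274 against 665 and 691 (0.87 ± 0.06). All 3 higher genes had both CPEB2 IgG arrays above both controls, which adds no support in genes picked because they were called. Of all genes, called or not, 35.8% did. Zfp932 lost its call without either control array, at 0.81 and 0.92. Zfp57 and Zfp445, which maintain imprints, gave 0.38 ± 0.40 and -0.50 ± 0.31 and were not called. At an unadjusted p under 0.05 the list held no further gene.

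Among 9 genes of nervous system development, 3 were higher and 2 lower, with a median of 0.32, beside 25.8% and 24.9% of all genes. Besides Zfp365, Zfp462, a chromatin protein of neuronal development, had 4289 and 3363 with CPEB2 IgG against 2004 and 1133 (1.39 ± 0.29, not called without either CPEB2 IgG array). The second probe of Zfp462 gave only 0.04. Zfp711, an X-linked intellectual disability gene, had 717 and 1034 against 411 and 398 (1.14 ± 0.36). Zfp536, a repressor of neuronal differentiation, was lower, with 431 and 448 against 1390 and 1351 (-1.59 ± 0.03, limma adjusted p = 0.00155). Zfp335, a microcephaly gene, was lower at 62.2 and 50.5 against 130 and 131 (-1.17 ± 0.26) and was not called after centring within GC bins. Zfp703, Zfp423, Zfp503 and Zfp521, regulators of neural or forebrain differentiation, lay between -0.26 and 0.44 and were not called. Zfp238 of this list is measured under its current symbol Zbtb18 and is no member. It was higher at 1.15 ± 0.71.

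Among 9 genes of RNA handling, translation and ubiquitin, 2 were higher and 2 lower, shares near those of all genes (25.8% and 24.9%). Besides Zfp830, the ubiquitin ligase gene Zfp91 was higher, with 92.8 and 132 against 62.5 and 58.3 (0.93 ± 0.39), a call lost without either control array or without the CPEB2 IgG array of experiment 2 (0.67). Zfp622, a factor for maturation of the large ribosomal subunit, was lower, with 4393 and 3646 against 13587 and 11415 (-1.58 ± 0.05, limma adjusted p = 0.00157). Zfp346, which binds double-stranded RNA, was lower at -0.72, a call lost after median centring, after centring within GC bins and without either control array. Zfp598, the ubiquitin ligase that recognises collided ribosomes, was at 0.27 ± 0.71, with opposite signs in the experiments. Zfp106, Zfp207, Zfp326 and Zfp593 were not called, with values from -0.67 to 0.58. Ltn1 and Rnf114, once named Zfp294 and Zfp313 and thus not counted here, gave 1.20 (higher) and 0.36 (not called).

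The partners through which KRAB proteins act were measured beside them. Of 20 such genes, 7 were higher (35%) and 4 lower (20%), beside 25.8% and 24.9% of all genes. Trim28, the corepressor that the KRAB domain binds, had 630 and 605 with CPEB2 IgG against 3954 and 4788, and fell by 2.76 ± 0.28 on the log2 scale (limma, adjusted p = 0.000392). Its relative Trim24 was also lower, with 424 and 495 against 1071 and 968, while Trim33, of the same family, rose by 2.60 ± 0.39. The heterochromatin proteins Cbx1 and Cbx3 were higher at 2.06 and 1.65, and Cbx5 was at 0.01. The histone deacetylase gene Hdac1 was higher at 2.25, and Smarcad1, Morc2a and Dnmt3a were higher at 1.57, 0.97 and 0.97. Uhrf1 and Dnmt1, which maintain DNA methylation, were lower at -1.63 and -0.77. Setdb1, the histone methyltransferase of the pathway, was at 0.15 and its cofactor Atf7ip at -0.29, both not called.

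**Figure D3:**
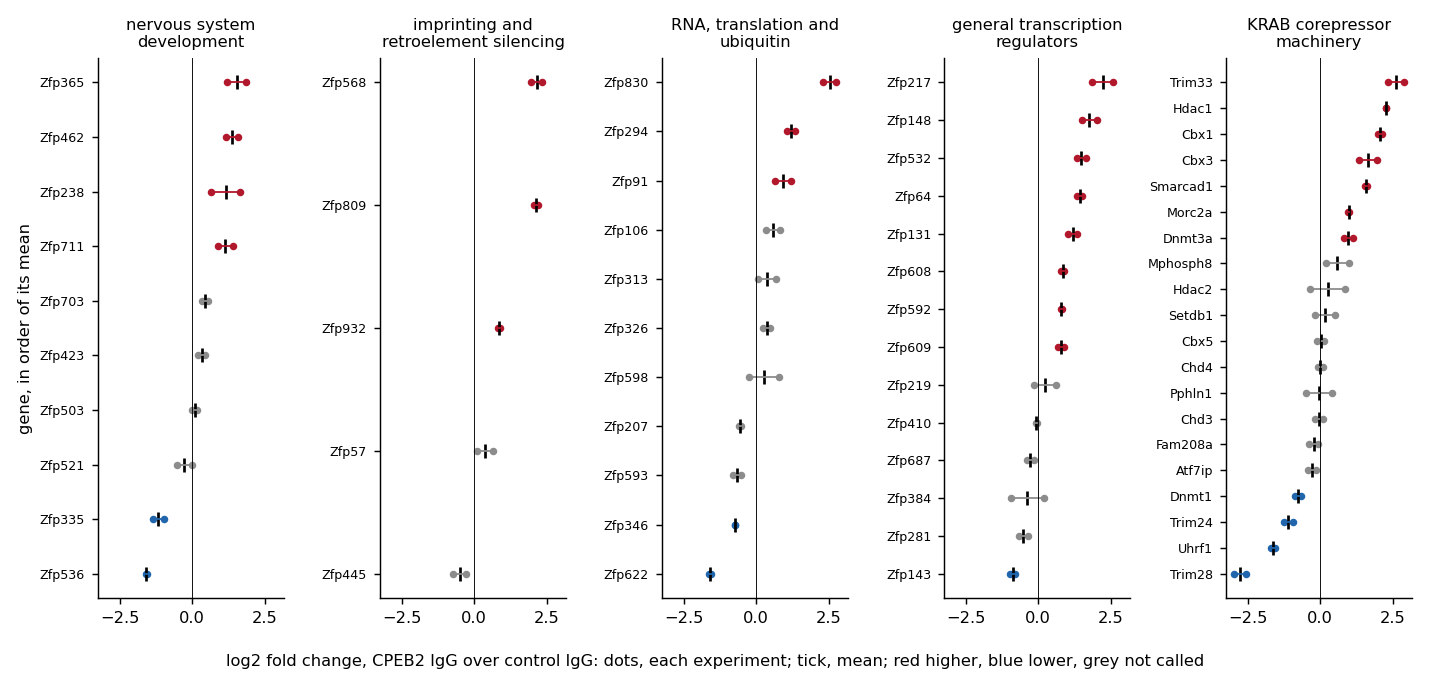
Log2 fold change of CPEB2 IgG over control IgG for each gene of the 4 role lists and of the KRAB corepressor list (x axis), with dots for the 2 experiments joined by a line and a tick at the mean; red is higher and blue lower in limma, grey not called. Zfp238, Zfp294 and Zfp313 are drawn under their older names and are measured as Zbtb18, Ltn1 and Rnf114; Trim28 lies lowest and Trim33 highest in the corepressor list.

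Like families gave other counts. Over all genes tested, 25.8% were higher and 24.9% lower, with a median of -0.07. Of 38 Zbtb genes, which join a BTB domain to zinc fingers, 16 were higher (42.1%) and 7 lower (18.4%), with a median of 0.53. Of 22 Zscan and Zkscan genes, which carry a SCAN domain, 2 were higher (9.09%) and 5 lower (22.7%; median -0.27). Of 19 Zfp genes with a letter after the number, 8 were higher (42.1%) and 1 lower (5.26%; median 0.28). The differences between these families and the numbered Zfp genes were not tested.

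The ratio of a Zfp gene went with the base composition of its probe. Across the 311 genes the Pearson correlation of probe GC content with the log2 fold change was -0.40 and Spearman's -0.38, and across all genes tested they were -0.37 and -0.38. Probes share the arrays and genes share the lysates, so these are descriptions. Among 102 Zfp genes whose probe held 35% G and C or less, 40 were higher (39.2%) and 8 lower (7.84%), with a median of 0.35, where 2130 and 521 of all 4734 genes in that class were. Among 70 from there to 40%, 25 were higher and 9 lower (median 0.18; all genes 1013 and 687 of 3443), and among 106 up to 45%, 19 were higher and 31 lower (median -0.17; all genes 18.8% and 28.7%). Among the 33 above 45%, 1 was higher (3.03%) and 18 were lower (54.5%), with a median of -0.98, where 8.69% and 42.2% of all genes were. The difference between the Zfp genes and all genes within a class was not tested. The same classes over all genes had medians of 0.56, 0.05, -0.22 and -0.55. Each CPEB2 IgG array was then centred against its control IgG array within 20 bins of probe GC content. After this, 92 Zfp genes were higher and 63 lower, where the shares over all genes were 26.7% and 25.5%. Bins were cut by rank, and genes of equal GC content were split in order of symbol. Zfp genes come late in that order and could share bins with probes of higher GC content. Members with 35% G and C moved by -0.31 and those with 45% by 0.44. Their centred values depend on that split. Of the 85 genes first higher, 77 were still called, and of the 66 first lower, 48 were. Zfp809, with 45% G and C, then had 2.57, and Zfp712 kept 2.97. The part of base composition in the single results was not tested.

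**Figure D4:**
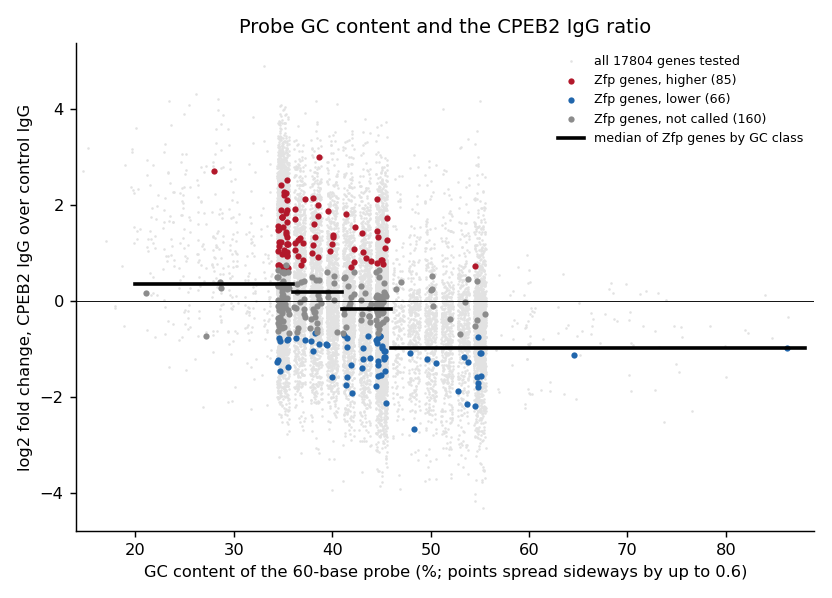
GC content of the 60-base probe (x axis, percent) and log2 fold change of CPEB2 IgG over control IgG (y axis) of the 311 Zfp genes, colored by limma call, over all 17804 genes in light grey. Black lines are the medians of the Zfp genes with up to 35%, 40% and 45% and above 45% G and C, which step down from 0.35 through 0.18 and -0.17 to -0.98.

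CPE letters stood in the probes of 19 Zfp genes (6.11%; all genes 5.86%), searched as TTTTAT and TTTTAAT on the mRNA strand only. Of these 19, 10 were higher and 1, Zfp454, was lower at -0.79, with a median of 0.96. Zfp712, Zfp148 and Zfp941, shown at the start, had the largest increases among them (3.00, 1.76 and 1.74). Of the 292 without the letters, 75 were higher and 65 lower (median 0.01). Over all genes, 45.8% of those with the letters were higher and 10.2% lower, against 24.6% and 25.8% without. The probes with the letters were poorer in G and C, with a median of 35% against 40% in the Zfp genes. Within the class of 35% or less, 7 of 14 Zfp genes with the letters were higher and 1 was lower, while 33 of 88 without them were higher and 7 lower. The shares higher, 50% and 37.5%, lay near the 54.0% and 43.7% of all genes in that class. Above 35%, the counts were 3 higher of 5 with the letters and 42 higher and 58 lower of 204 without. Over all genes above 35%, 35.2% with the letters were higher and 14.8% lower, against 18.3% and 30.5% without. A probe covers only 60 bases of a transcript, so letters elsewhere in an mRNA are not seen.

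Zfp genes that lie side by side differed by cluster. Probes within 500 kb of the next formed 12 clusters of at least 5 members, which held 121 of the genes. In the clusters 22 were higher (18.2%) and 35 lower (28.9%; median -0.14). Outside them 63 of 190 were higher (33.2%) and 31 lower (16.3%; median 0.16). Over all genes tested, 25.8% were higher and 24.9% lower. The median probe GC content was 41.7% in clusters and 38.3% outside. On chr7:4871046-5005178, all 6 members (Zfp628, Zfp579, Zfp524, Zfp865, Zfp784 and Zfp580) were lower, from -2.15 to -0.93, with a median probe GC content of 54.2%. Across the 16 tested settings that did not require a bright signal, between 3 and 6 of them were lower, with 3 after centring within GC bins. On chr7:134381189-135029250, 9 of 10 were lower. The tenth, Zfp646, was at 0.25 on its brightest probe and at -1.05 on its second. With averaged probes all 10 lay below 0, and 8 were called lower. In that group Zfp771 had 7205 and 5707 with CPEB2 IgG against 16488 and 15877 (-1.28 ± 0.24), Zfp768 had 3894 and 2776 against 8674 and 6038 (-1.08 ± 0.02), and Zfp688, with only 35% G and C in its probe, had 716 and 823 against 1890 and 1844 (-1.23 ± 0.13). Between 5 and 9 of the 10 were lower across these settings, and 8 after centring within GC bins.

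Another cluster leaned the opposite way. On chr17:32910629-33768635, 6 of 11 (54.5%) were higher and none was lower, beside 25.8% and 24.9% of all genes. The median was 0.76 and the median probe GC content 40%. Zfp799, Zfp871 and Zfp763 led that cluster with 1.58 ± 0.47, 1.33 ± 0.24 and 1.22 ± 0.14. The second probe of Zfp763 gave -0.33, and with averaged probes 4 of the 11 were higher. The count was between 4 and 7 across the same settings, and none of the 11 was lower in any. On chr13:67139715-67927746, 4 of 16 (25%) were higher, near the 25.8% of all genes, and none was lower, with Zfp712 and Zfp748 (424 and 768 against 172 and 177) in front and the other 12 between -0.17 and 0.62. A second group on chromosome 17, with 19 members from Zfp160 to Zfp13, held 3 higher and 2 lower, and the 15 members from Zfp84 to Zfp146 on chromosome 7 held 3 higher and 5 lower, among them Zfp568 and Zfp790 on opposite sides. Each cluster is a set of related and neighbouring genes, so its members are not independent.

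**Figure D5:**
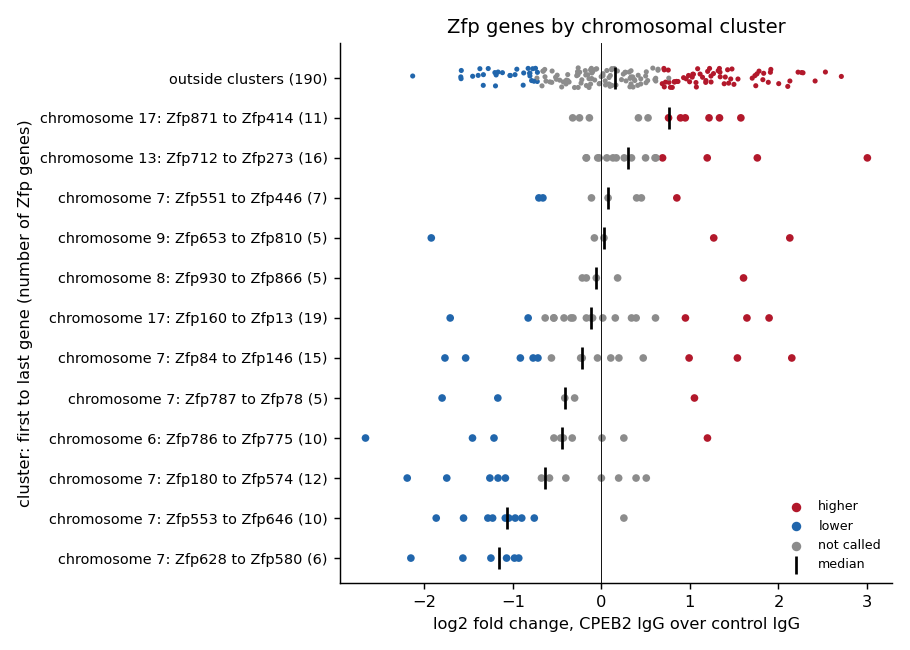
Log2 fold change of CPEB2 IgG over control IgG (x axis) of the Zfp genes in each of the 12 chromosomal clusters and outside them (y axis, with the number of genes), colored by limma call, with a tick at the median. Clusters are ordered by median, from -1.16 for the 6 genes from Zfp628 to Zfp580 on chromosome 7 to 0.76 for the 11 genes from Zfp871 to Zfp414 on chromosome 17.

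For 116 of the 311 genes at least 2 probes were well above background on all arrays, and the probes of a gene spread over a median of 0.80 on the log2 scale. Of 66 such genes called at the brightest probe, 25 had another probe on the other side of 0. In 8 the probes passed 1.5-fold in both directions. Zfp367, a cell cycle regulator, gave 1.83 at its brightest probe and -1.33 at the other. Zfp318 gave 0.98 at its brightest and from -2.12 to -0.60 at 3 others. Zfp949, Zfp84, Zfp655, Zfp160 and Zfp68 also had probes on both sides. With the probes of each gene averaged, 65 Zfp genes were higher and 65 lower (20.9% each), against 23.8% and 25.7% of all genes, and Zfp318 changed from higher to lower.

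Some probes of related genes were alike. In 30 pairs of Zfp genes the probes shared a run of at least 15 bases, so that transcripts of one gene could in part bind the probe of the other, and these genes are uncertain. The runs below are shown because both spell codons of the linker between zinc fingers, which recurs across the family.
Zfp442 and Zfp930, 24 bases: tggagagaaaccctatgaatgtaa
Zfp534 and Zfp936, 21 bases: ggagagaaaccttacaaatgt
Zfp442, Zfp930, Zfp534 and Zfp936 were not called, with log2 fold changes of 0.12, -0.22, -0.26 and 0.12. Zfp108 and Zfp114, neighbours on chromosome 7 with 20 shared bases, gave -1.26 (lower) and -0.68 (not called).

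The 18 symbols outside the rule were mostly dim. For 5 of them, Zfp109, Zfp264, Zfp541, Zfp616 and Zfp735, no probe was well above background on any array. Zfp560, detected on 3 arrays, had 131 and 190 with CPEB2 IgG against 15.2 and 21.1, and on 1 control array was not well above background. Its log2 fold change was 3.19 in each experiment. Zfp474 was well above background only on the control IgG arrays, at 43.2 and 34.2 against 7.04 and 20.4. The dimmest genes that met the rule were Zfp808, with 16.2 and 20.8 against 32.6 and 32.6, and Zfp575, with 17.2 and 24.5 against 25.6 and 39.8.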

How the data were processed

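RIP-microarray data of 4 one-color Agilent SurePrint G3 arrays were used, 2 with RNA from CPEB2 IgG and 2 from control IgG (0.2 µg per sample, labelled with Cy3). The authors deposited the scanner output of Feature Extraction 10.5.1.1, whose processed signal is a spot intensity after background correction. Arrays were not normalized against each other, and no such step is named in the methods. Detection flags came from the same files. Probe coordinates and symbols are those of the array annotation (mm9). Control spots, non-uniform spots and population outliers were left out, repeated spots were averaged and 66 probes without a value on some array were dropped. Intensities were put on the log2 scale and scaled to the 75th percentile of 55615 probes. limma 3.58.1 in R 4.3.3 was fitted to 17804 genes with the experiment as a block (1 residual degree of freedom), with p-values adjusted by Benjamini-Hochberg and called under 0.05, and was tested on simulated data. Python 3.11.15, numpy 2.4.6 and pandas 2.3.3 served for the rest.

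The pairing comes from the methods, which divide each lysate between the antibodies, and arrays of the same number deviated together (correlation 0.22). Whether mice were pooled is not given in the sources used here, and p-values measure only the spread between these samples. In limma each gene's variance is pulled toward a value shared by all genes, with 5.84 prior degrees of freedom beside 1 residual. A p-value thus does not rest only on the SD printed beside it. The members, gene lists and clusters were chosen with earlier results of these data known. Genes named are the 10 largest called increases and decreases with the same sign in both experiments, the 4 brightest, up to 5 with experiments over 1.5 apart, the role and corepressor lists, Cpeb2, Gripap1 and Gapdh. Others (members of the clusters, with CPE letters, with diverging probes or near a threshold) were chosen after their values were seen. Alternatives were quantile normalization, median centring, no scaling, a percentile over detected probes, normexp correction with an offset of 50, centring within 20 GC bins, marked spots kept, no block, an intensity trend, other detection filters, averaged probes, other thresholds, and each experiment or array left out. Fits with 1 array left out were run without the block for the experiment. Protein sequences were not analysed here.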

Additional observations from a re-analysis of the deposited data

Results flagged for a closer look

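Zfp516, a transcriptional regulator of brown fat, lay outside the comparison because it was not detected on all arrays, and its signal stood above the control level: it was well above background on both CPEB2 IgG arrays, with raw signals of 34.9 and 52.3, and on neither control IgG array, where it read 13.8 and 12.5. No test was run on it.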

How the results depend on the processing

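Of the 151 called Zfp genes, 1 changed sign in a tested alternative: Zfp318 went from 0.98 to -0.90 with averaged probes (limma, adjusted p = 0.0148), and with a raw signal over 1000 required only 68 of them were measured. Counts moved more. After median centring 41 members were lower and the median over members was 0.26, that over all genes 0.15. The median over all genes was 0.0394 after quantile normalization and -0.18 with the percentile over detected probes. With a raw signal over 1000 required on an array, 43 of 112 members were higher (38.4%) and 34 lower (30.4%), against 3313 and 2642 (32.7%) of 8085 genes, whose median was 0.16. A raw signal over 2000 left 24 members past the thresholds of the study. Without the block for the experiment, 83 members were higher and 63 lower (all genes: 4455 and 4129), with a median of 0.03, and of the named genes Zfp13 and Zfp775 lost their calls and Zfp593 gained one. When 1 array or 1 experiment was left out, members higher ranged from 63 to 88 and lower from 37 to 54, all genes higher from 3696 to 4557 and lower from 3263 to 4290, the median of members from -0.07 to 0.13 and of all genes from -0.13 to 0.0043, and members past the thresholds of the study from 32 to 46. Members lower were fewest without the control arrays, at 37 and 43. The fits without 1 array also had no block for the experiment, so they differ from the main fit in both respects. The causes were not tested.

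The named genes that changed sign were not called after 75th percentile scaling. After centring within GC bins Zfp663 had -0.0356, Zfp598 -0.23, Zfp408 -0.21, Zfp410 0.12, Zfp687 0.16 and Zfp384 0.22. After median centring Zfp410 had 0.16, Zfp791 0.11 and Zfp600 0.0734, and after quantile normalization Zfp791 had 0.0389 and Zfp600 0.0706. With the percentile over detected probes Zfp408 had -0.00486 and Zfp503 -0.0200, and with averaged probes Zfp423 had -0.27. With 1 array or experiment left out, Zfp219 ranged from -0.14 to 0.60, Zfp384 from -0.95 to 0.19, Zfp503 from -0.00265 to 0.18, Zfp598 from -0.24 to 0.77, Zfp600 from -1.15 to 0.84, Zfp663 from -0.71 to 1.26, Zfp791 from -1.69 to 1.45 and Zfp820 from -1.15 to 0.47. The alternative on protein features was not run, since no protein sequences were used here. With 2 arrays per antibody and signals near background, the dimmest members have only loose values.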
